A study of Mus musculus with 2 samples.

Results

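The genes described here encode signals that drive growth of endothelium, the receptors of these signals, and Hif1a, a transcription factor stabilised in hypoxia. They are the ligand genes Vegfa, Vegfc, Angpt1 and Angpt2, the receptor genes Kdr, Flt1, Flt4, Tek and Tie1, and Hif1a. They were chosen by name and not by a measured value, but with earlier results of these data known. Every row of the peak list with one of these 10 gene symbols was taken, which gave 52 of the 48295 peaks. Isl1 occupancy had been mapped by ChIP-Seq in the cardiogenic mesoderm and heart region of C57BL/6 mouse embryos at E8.25-E9. The series holds 1 sample precipitated with an anti-Isl1 antibody and 1 input sample, each described as chromatin from about 60 to 80 pooled embryos. The peak list of the ChIP sample was analysed, and the signal of the input was not analysed here. The list gives the position of each peak, its signed distance to the closest transcription start site (TSS) and a gene name, without height, p-value or reads, so depth is unknown. With 1 list no peak could be checked here against a replicate, and no test was made. The dissected tissue could not be checked against expression markers, because the list holds no expression.

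Vegfa signals through Kdr and is also bound by Flt1, which can act as a trap for the ligand. Vegfc acts on Flt4 in lymphatic endothelium. Angpt1 activates the receptor Tek, Angpt2 modulates the same receptor, and Tie1 is a partner of Tek. Hif1a raises Vegfa transcription when oxygen is low. Kdr marks early mesodermal progenitors of heart and vessels, and Isl1-positive progenitors give rise to endothelium as well as to heart muscle and smooth muscle.

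Isl1 peaks were assigned to 9 of the 10 genes, and Tie1 had none. Over all 21031 protein-coding genes of RefSeq, 51.8% had at least 1 peak by the same rule of the closest TSS. At least 2 peaks were assigned to 8 of the 10 genes, against 30.5% of all protein-coding genes. The counts depended on how much sequence lies closest to a gene, as given for each gene below. Kdr had 15 peaks, Vegfc 9, Vegfa and Angpt1 7 each, Flt1 5, Flt4 and Hif1a 3 each, Tek 2 and Angpt2 1. The median over the 9 genes was 5 peaks, and over the 12972 gene names of the whole list it was 2.

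A peak within 10 kb of the TSS was present for 4 of the 10 genes, Kdr, Flt4, Tek and Hif1a, and for 25.6% of all protein-coding genes. These were 5 peaks in all, since Kdr had a peak on either side of its TSS. None of the ligand genes had one. No peak of the 10 genes lay within 1 kb of a TSS. In the whole list 2.58% of the peaks did, and 0 of 52 allows a share of up to 5.77%, so a lower share at these genes was not detectable with 52 peaks. This limit, like the intervals below, covers counting error only.

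The centres of 4 peaks within 10 kb of a TSS are shown first, 1 for each gene with such a peak. The nearest site of all, in an intron of Kdr 1.12 kb downstream of its TSS, is not shown. Its window held a run of 102 purines. Each sequence shown is a window of 200 bp around the peak midpoint, read from mm9 on the forward strand. The longest uninterrupted run of purines or of pyrimidines is in capitals. The Hif1a intron site lies 1.16 kb downstream of its TSS, and the intergenic sites lie 4.96 kb upstream of Kdr, 5.22 kb upstream of Flt4 and 7.20 kb upstream of Tek.
Hif1a intron (chr12:75003371-75003570): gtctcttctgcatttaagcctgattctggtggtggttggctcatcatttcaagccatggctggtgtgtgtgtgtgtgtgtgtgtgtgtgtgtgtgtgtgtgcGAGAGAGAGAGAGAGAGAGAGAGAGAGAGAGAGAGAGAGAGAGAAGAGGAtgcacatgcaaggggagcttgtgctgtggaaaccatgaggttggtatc
Kdr upstream (chr5:76379315-76379514): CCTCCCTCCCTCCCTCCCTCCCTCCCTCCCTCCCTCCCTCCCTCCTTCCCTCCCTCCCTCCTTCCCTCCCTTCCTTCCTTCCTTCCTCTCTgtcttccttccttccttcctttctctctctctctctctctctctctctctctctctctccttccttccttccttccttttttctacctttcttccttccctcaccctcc
Flt4 upstream (chr11:49417860-49418059): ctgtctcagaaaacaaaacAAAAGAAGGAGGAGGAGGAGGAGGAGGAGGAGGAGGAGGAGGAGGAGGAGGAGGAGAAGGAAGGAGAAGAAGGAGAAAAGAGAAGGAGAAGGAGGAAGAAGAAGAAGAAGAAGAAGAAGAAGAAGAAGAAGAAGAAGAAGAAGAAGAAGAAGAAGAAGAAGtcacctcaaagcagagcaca
Tek upstream (chr4:94398679-94398878): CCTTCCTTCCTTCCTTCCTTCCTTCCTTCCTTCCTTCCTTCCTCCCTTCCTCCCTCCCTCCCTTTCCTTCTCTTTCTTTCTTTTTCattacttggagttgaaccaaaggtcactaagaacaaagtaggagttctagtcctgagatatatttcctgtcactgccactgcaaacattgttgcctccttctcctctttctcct
The runs are 50 purines at the Hif1a site, 91 pyrimidines upstream of Kdr, 161 purines upstream of Flt4 and 86 pyrimidines upstream of Tek. They are simple repeats, of GA in Hif1a, GGA and then GAA in Flt4, and CCCT or CCTT units upstream of Kdr and Tek.

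Such runs were shared by nearly all peaks of the vascular genes. A run of at least 25 bases lay within 100 bp of the midpoint in 50 of the 52 peaks (96.2%, 95% Wilson interval 87.0 to 98.9%), and in 94.1% of the whole list. Among 104 flanking windows, centred 1 kb away from the 52 midpoints on both sides, 3.85% held one, and 3.95% of those around all peaks did. The median longest run was 97 bp at the vascular genes and 92 bp over the whole list. The series gives no height per peak, and whether these peaks mark Isl1 at the runs or another property of such sequence in the library was not tested.

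The ligand genes had 24 peaks, 6 of them upstream, with a median distance of 101.7 kb. Their closest peaks are shown to let the sites of the ligand genes be compared with those of the receptors. That of Vegfa lies 12.1 kb upstream, that of Vegfc 11.6 kb upstream, that of Angpt1 in an intron 10.9 kb downstream, and that of Angpt2 33.9 kb upstream, inside an intron of Mcph1.
Vegfa upstream (chr17:46181292-46181491): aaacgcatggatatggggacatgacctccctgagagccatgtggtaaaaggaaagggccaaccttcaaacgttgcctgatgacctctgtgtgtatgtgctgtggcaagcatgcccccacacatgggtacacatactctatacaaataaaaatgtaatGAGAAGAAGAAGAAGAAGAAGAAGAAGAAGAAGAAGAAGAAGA
Vegfc upstream (chr8:55151222-55151421): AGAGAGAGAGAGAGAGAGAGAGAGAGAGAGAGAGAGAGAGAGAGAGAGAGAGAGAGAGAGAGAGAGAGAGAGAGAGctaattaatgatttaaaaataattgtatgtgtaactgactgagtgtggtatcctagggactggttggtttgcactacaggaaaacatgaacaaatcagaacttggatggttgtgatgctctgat
Angpt1 intron (chr15:42497564-42497763): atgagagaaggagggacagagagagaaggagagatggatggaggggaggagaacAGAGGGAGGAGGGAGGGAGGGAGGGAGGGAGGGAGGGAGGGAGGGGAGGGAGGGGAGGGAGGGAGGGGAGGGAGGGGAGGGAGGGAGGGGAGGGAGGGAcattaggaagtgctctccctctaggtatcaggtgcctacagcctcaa
Angpt2 upstream (chr8:18775313-18775512): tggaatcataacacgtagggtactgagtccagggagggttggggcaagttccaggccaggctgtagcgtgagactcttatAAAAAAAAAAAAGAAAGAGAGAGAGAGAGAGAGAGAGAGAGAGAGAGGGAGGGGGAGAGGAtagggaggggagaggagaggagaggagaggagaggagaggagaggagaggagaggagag
Within the window the run covers 43 purines in Vegfa, 76 in Vegfc, 99 in Angpt1 and 61 in Angpt2, and over the whole Vegfa peak the longest run was 133 bp. The sequence beside the Vegfc run holds 4 copies of the homeodomain core TAAT, counted on both strands with overlaps. The Angpt1 run is directly followed by CTAATG, a longer site of the Isl1 type, read on the reverse strand.

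Vegfa, the main growth factor for endothelium (chr17:46153942-46169326, minus strand), had 1 peak upstream and 6 peaks downstream of the gene, at 35.9, 48.1, 62.2, 82.4, 104.3 and 109.9 kb. All 7 were intergenic, and none lay in the body of Vegfa, which is 15.4 kb long. Distances of the 6 downstream peaks refer to a TSS inside the annotated gene, at 46162112, and that of the upstream peak to the annotated 5′ end at 46169326. The 6 downstream peaks held runs of 64 to 200 bp. Within 100 kb of the Vegfa TSSs lay 2 further peaks, 59.3 and 65.8 kb upstream, that were assigned to Mrps18a.

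Vegfc, the lymphatic growth factor (chr8:55162886-55271808, plus strand), had 3 peaks upstream, at 11.6, 67.8 and 122.2 kb, and 6 downstream. Of the 6, those at 33.0, 49.7 and 99.1 kb lay in introns of Vegfc and those at 109.8, 113.6 and 141.8 kb lay beyond its 3′ end. The widths of the 9 peaks ranged from 359 to 544 bp. Vegfc thus had peaks on both sides and inside the gene, whereas the Vegfa peaks all lay outside it.

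Angpt1, the activating ligand of Tek (chr15:42256273-42508523, minus strand), had its 7 peaks spread over 606.5 kb, the widest span among the 9 genes. Peaks at 10.9, 106.0, 130.4 and 215.9 kb downstream of the TSS lay in introns of the gene, which is 252.3 kb long. Those at 263.6 and 390.5 kb downstream lay beyond it, and 1 lay 215.3 kb upstream. Angpt1 had the widest peak of the 10 genes, the intronic peak at 215.9 kb with 987 bp, and 99.2% of all peaks in the list were as narrow or narrower. Of its 7 peaks, 5 were wider than 700 bp, against 9.11% of the whole list. The median width of the Angpt1 peaks was 733 bp, and that of the whole list was 466 bp. Angpt2 (chr8:18690263-18741562, minus strand) had its single peak of 523 bp 33.9 kb upstream, in an intron of Mcph1, a gene that surrounds it.

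The receptor genes had 25 peaks, 14 of them upstream and 4 within 10 kb, with a median distance of 39.9 kb. Most of these were peaks of Kdr, the main signalling receptor for Vegfa (chr5:76328852-76374483, minus strand). Of the 12972 gene names in the list, 435 had more peaks than Kdr. Its peaks spanned 244.6 kb, with a median gap of 15.9 kb between neighbours and a shortest gap of 0.967 kb. Upstream of the TSS they lay at 4.96, 10.7, 15.4, 42.4, 43.4, 52.7 and 57.1 kb, all intergenic. Those at 1.12 and 23.6 kb downstream lay in introns of Kdr. The other 6 lay between Kdr and Kit, at 50.6, 80.6, 120.7, 122.5, 158.7 and 186.9 kb. All 15 peaks held a run of 54 bp or more, and their widths ranged from 309 to 688 bp. The peaks of Kdr thus covered the gene and intergenic sequence on both sides of it.

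**Figure D1:**
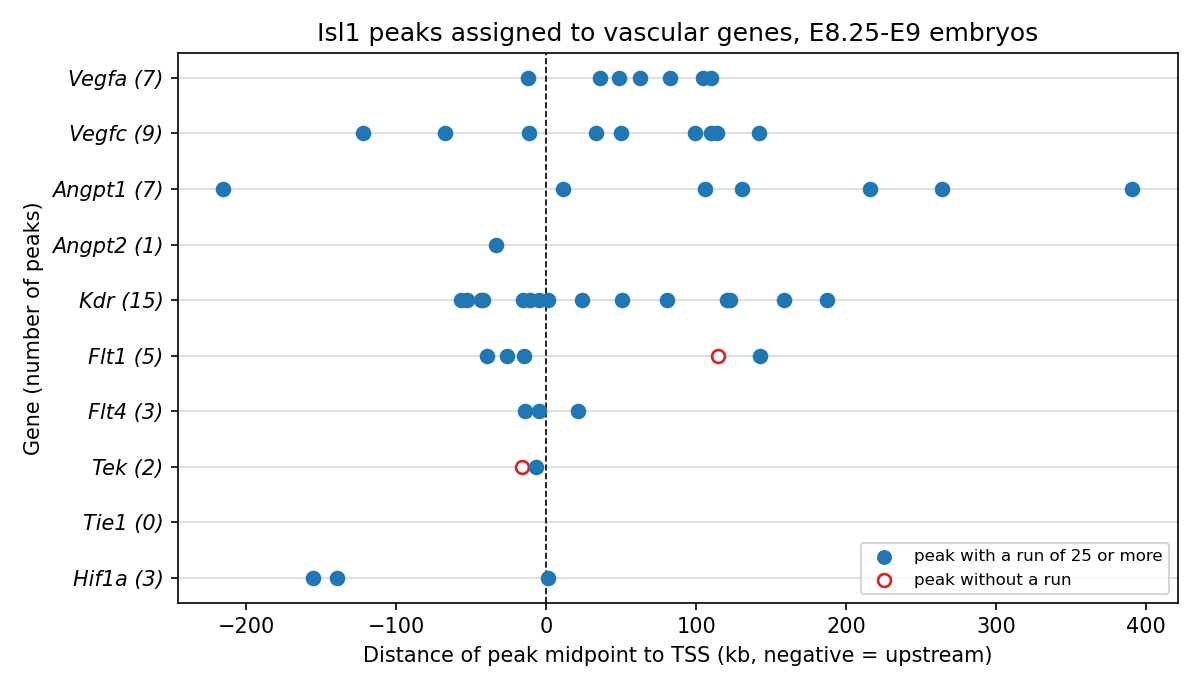
Each point is an Isl1 peak of E8.25-E9 embryos, placed by the distance of its midpoint to the TSS in kb (horizontal axis, upstream negative) and by the gene it was assigned to (vertical axis, with the number of peaks). Filled points held a purine or pyrimidine run of at least 25 bp and open points did not. The 15 Kdr peaks reach from 57.1 kb upstream to 186.9 kb downstream of its TSS, the 7 Angpt1 peaks span 606.5 kb, and Tie1 has none.

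Flt1, the decoy receptor for Vegfa (chr5:148373180-148537587, minus strand), had upstream peaks at 15.1, 26.4 and 39.9 kb, all intergenic, and intronic peaks at 114.5 and 142.7 kb. Flt1 peaks had a median width of 737 bp. Flt4, the receptor for Vegfc (chr11:49422765-49466241, plus strand), had peaks 5.22 and 14.5 kb upstream and 1 in an intron 21.4 kb downstream, between 336 and 523 bp wide. Within 100 kb of its TSS lay 3 more peaks, assigned to Olfr1380, Olfr1381 and Scgb3a1. Tek, the angiopoietin receptor (chr4:94405980-94541667, plus strand), had peaks 7.20 and 16.3 kb upstream and none in its body of 135.7 kb. Farther upstream, at 53.3 and 63.9 kb, lay 2 peaks assigned to Mir872.

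Tie1 (chr4:118143796-118162666, minus strand) had no peak within its gene of 18.9 kb and none assigned to it. The nearest peak lay 24.1 kb upstream of the Tie1 TSS, on chromosome 4 from 118186483 to 118187093, and was assigned to 2610528J11Rik. Other peaks within 100 kb included 1 assigned to Cdc20, 52.3 kb downstream of the Tie1 TSS, and 1 assigned to Tmem125, 81.3 kb upstream. Sequence near Tie1 was therefore not free of peaks, but they were assigned to other genes.

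Hif1a (chr12:75002362-75048517, plus strand) had 1 peak of 325 bp in an intron 1.16 kb downstream of its TSS, on chromosome 12 from 75003309 to 75003634. Of all peaks in the list, 2.90% were as close to a TSS or closer. The other 2 peaks lay 139.5 and 155.6 kb upstream, each 440 bp wide, in introns of Prkch. Another peak, 62.9 kb downstream of the Hif1a TSS, was assigned to Snapc1.

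Over the 52 peaks, 36 were intergenic and 16 lay in introns, and none overlapped an exon of a protein-coding gene of GENCODE. Of the 16, 13 lay in the gene to which they were assigned and 3 in Mcph1 or Prkch. The median distance to the TSS was 54.9 kb at the vascular genes and 58.8 kb over the whole list. The median width was 468.5 bp, close to the 466 bp of the whole list, with a range of 309 to 987 bp. Peaks wider than 700 bp, a limit set after the widths were seen, numbered 9 (17.3%, against 9.11% of the list), of which 5 belonged to Angpt1, 3 to Flt1 and 1 to Tek. The medians were thus close to those of the list, whereas the narrowest and widest peaks of the list, from 175 to 3426 bp, and those within 1 kb of a TSS were not among them.

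**Figure D2:**
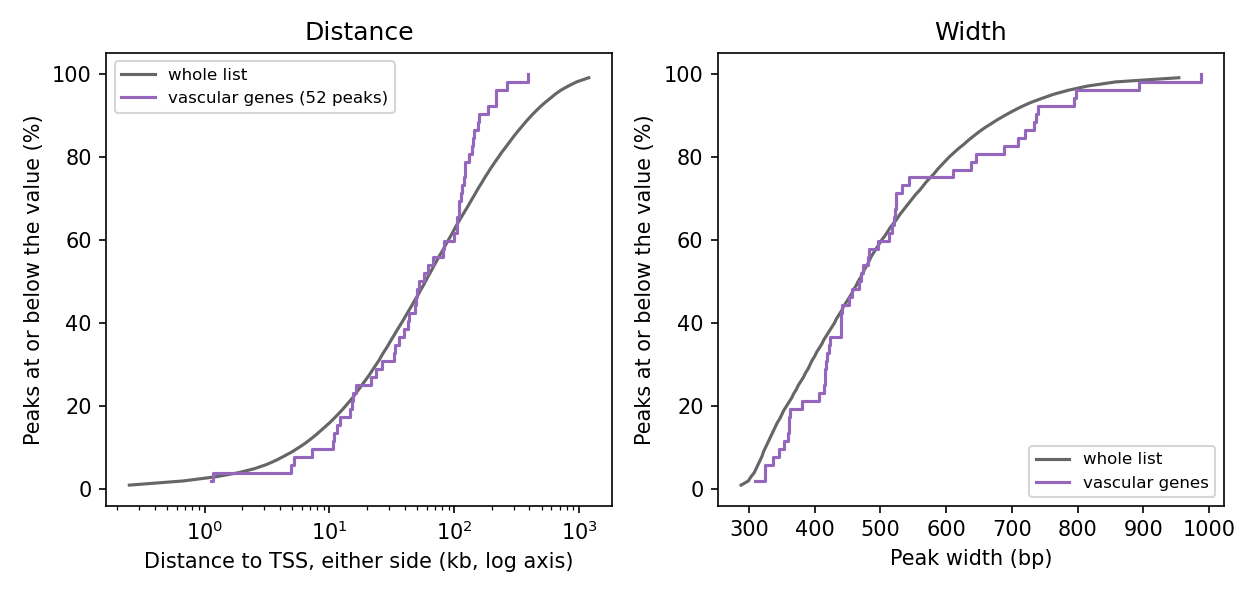
Percent of peaks at or below a distance to the TSS in kb (left, log axis) and at or below a width in bp (right), for the 52 peaks of the vascular genes as steps and for the whole list as a line drawn between its 1st and 99th percentiles. The medians are 54.9 and 58.8 kb for distance and 468.5 and 466 bp for width. No vascular peak lies closer than 1.12 kb, and none lies farther than 390.5 kb.

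A gene collects more peaks where its neighbours are far away, so the peaks were also counted per length of territory, the sequence closer to a TSS of that gene than to any other protein-coding TSS of GENCODE. The median territory of the 10 genes was 209.8 kb, against 45.5 kb over all genes. Among all genes with territories of 200 to 400 kb, 98.8% had a peak. Vegfa, Kdr, Flt1 and Hif1a belong to this class. Of the genes with under 50 kb, which include Flt4 and Tie1, 29.7% had a peak. Of those with 100 to 200 kb, which include Tek and Angpt2, 88.9% had one, and of those above 400 kb, which include Vegfc and Angpt1, 99.4%. The share of the 10 genes with a peak is to be read beside these values.

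By this count the 10 territories held 51 peaks, because 1 Kdr peak was closer to Kit, and 21.4 peaks per Mb, against 18.9 per Mb over the genome. Kdr had 14 peaks in 263.8 kb, or 53.1 per Mb. Of the 1642 genes with territories of 200 to 400 kb, 0.609% were as dense, and their median was 5 peaks. Vegfa, with 7 peaks in 213.3 kb, had 32.8 per Mb, reached by 12.5% of the same class. Flt4 had the highest density of the 10, 60.2 per Mb, but from 3 peaks in 49.8 kb. Flt1 had 22.3 per Mb and Vegfc 19.8 per Mb, close to the genome. The lowest values above 0 were 7.82 per Mb for Angpt2, 10.8 for Angpt1, 12.7 for Tek and 14.5 for Hif1a. In their own size classes, 79.4% of genes were at least as dense as Angpt2, 88.5% as Angpt1, 63.1% as Tek and 65.5% as Hif1a. The same share was 8.33% for Flt4, 39.6% for Flt1 and 43.3% for Vegfc. Tie1 had 0 peaks in 34.9 kb.

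**Figure D3:**
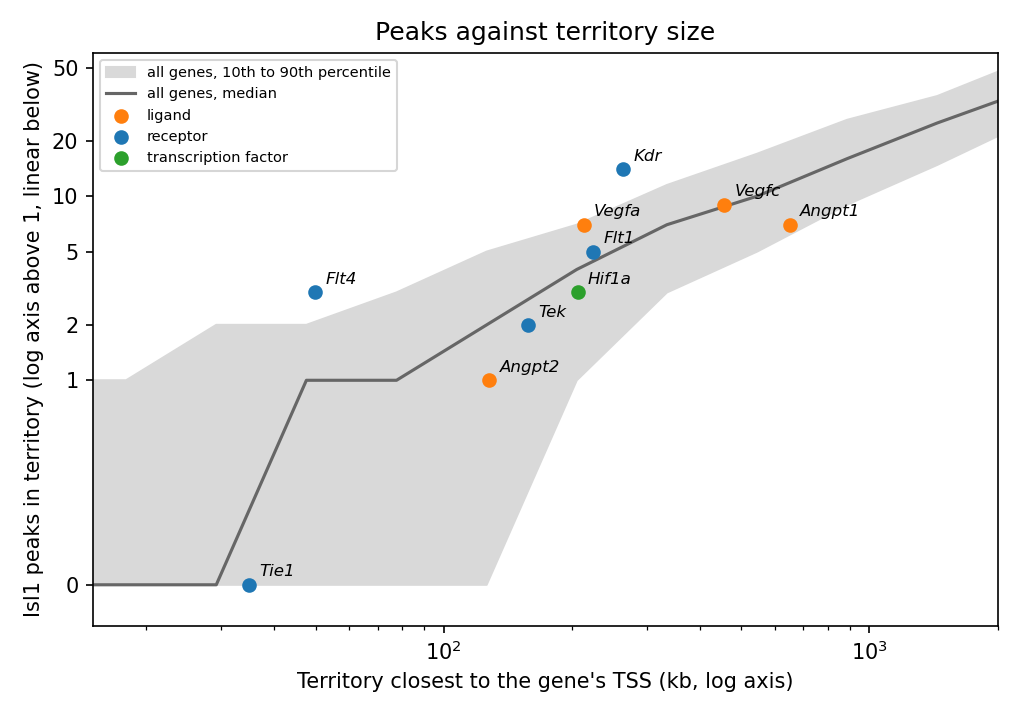
Number of Isl1 peaks in the territory of each gene (vertical axis, logarithmic above 1 and linear below) against the size of the territory in kb (log axis). The line is the median and the band the 10th to 90th percentile of all protein-coding genes in size bins. Kdr with 14 peaks and Flt4 with 3 lie above the band, and the others lie within it or at its edge.

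Since nearly all peaks held a run, the runs of the territories were counted as well. The 10 territories held 173 runs, of purines or pyrimidines, with at least 50 bp, or 72.6 per Mb, and the genome 69.1 per Mb. Of these runs, 63 lay under a peak (36.4%, 95% Wilson interval 29.6 to 43.8%), against 30.4% over the genome. Kdr had 28 such runs, of which 19 lay under a peak (67.9%, interval 49.3 to 82.1%), and its territory held 106.1 runs per Mb. Flt1 had nearly as many runs, 25 or 111.2 per Mb, and 4 of them lay under a peak (16%, interval 6.40 to 34.7%). Vegfa had 107.8 such runs per Mb with 39.1% under a peak, and Flt4 100.3 per Mb with 4 of 5 under a peak. Territories with a similar density of runs thus ranged from 16% to 80% in the share under a peak. For runs of at least 100 bp the share was 72.7% at Kdr (interval 43.4 to 90.3%) and 22.2% at Flt1 (interval 6.32 to 54.7%), and these intervals overlapped. The differences between genes were not tested. In the territory of Tie1 there were 2 runs of at least 50 bp and none of at least 100 bp, and 0 of the 2 lay under a peak. Several runs can lie under 1 peak, so the runs are not independent and the intervals are too narrow.

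**Figure D4:**
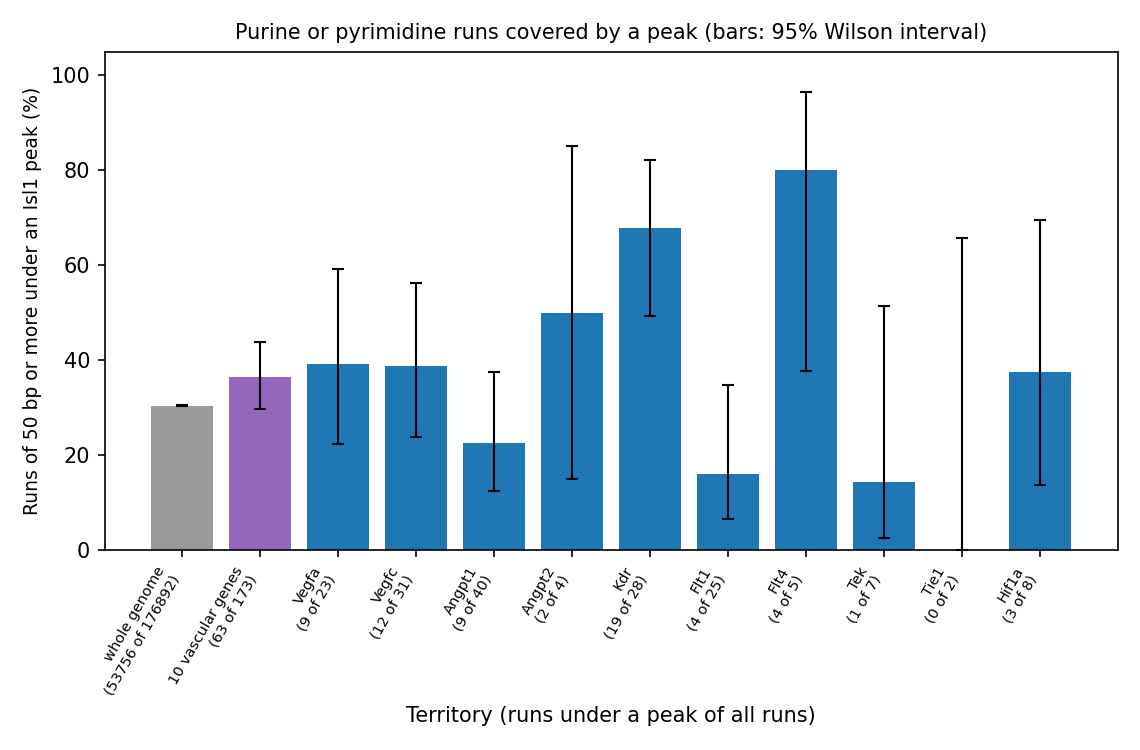
Percent of runs with 50 or more purines or pyrimidines that lay under an Isl1 peak (vertical axis), for the genome, the 10 territories together and each gene, with the number of runs under a peak and in all below each bar and 95% Wilson intervals as error bars. Kdr reached 67.9% of 28 runs and Flt1 16% of 25, and the genome lay at 30.4%.

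Peaks without a run were assigned to 2 of the 10 genes, Flt1 and Tek, 1 each, and to 9.64% of all protein-coding genes. Counted by peak, 2 of the 52 had no run, and 2855 of the 48295 in the whole list had none. The 2 peaks lie in an intron of Flt1 114.5 kb downstream of the TSS and in intergenic sequence 16.3 kb upstream of Tek. The centre of the Tek peak is shown as an exception to the pattern above, in lower case throughout.
Tek far upstream (chr4:94389581-94389780): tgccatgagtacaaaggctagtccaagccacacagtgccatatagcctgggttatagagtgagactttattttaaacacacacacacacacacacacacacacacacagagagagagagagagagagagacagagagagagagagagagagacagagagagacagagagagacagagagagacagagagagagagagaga
The Tek window ends in a GA repeat broken by single C bases, after a CA repeat, with a longest run of 23 bp, just under the minimum of 25. Over its whole width the Tek peak held a run of 29 bp, and the Flt1 peak one of 14 bp.

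Motif letters were counted in the same 200 bp windows on both strands. The homeodomain core TAAT was present in 21 of the 52 peaks (40.4%), in 35.3% of all peaks, and in 67.3% of the windows 1 kb away from the 52. CTAATG, which contains TAAT, was present in 2 peaks, the Angpt1 peak at 10.9 kb and the Kdr peak at 23.6 kb, or 3.85%, against 2.66% of all peaks and 8.65% of the windows 1 kb away from the 52. ACGTG, the core bound by hypoxia-inducible factors, was present in the Vegfc peak at 99.1 kb and in the Angpt2 peak, and in 2.64% of all peaks. In the windows 1 kb away from the 52 its share was 4.81%. The Gata site GATAAG was present in the Kdr peak at 120.7 kb, in 2.85% of all peaks and in 6.73% of the windows 1 kb away from the 52. For each of these motifs the share over all peaks lay within the 95% Wilson interval of the vascular genes. Each of these motifs mixes purines with pyrimidines, so none can lie inside a run. The median longest run was 97 bp in the 200 bp windows of the 52 peaks, whereas 3.85% of their windows at 1 kb held a run. Shares in peaks and at 1 kb thus come from unlike sequence, and no depletion of motifs can be read from them. A match of letters is a description of the window and not a site in use.

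Of 43 further genes, 32 (74.4%) had a peak, against 51.8% of all protein-coding genes, with 140 peaks between them. These were 10 ligands, co-receptors and related genes, 9 genes of the hypoxia pathway and 24 endothelial and related genes, called pathway genes below. The shares with a peak were 60%, 55.6% and 87.5% in this order. A peak within 10 kb was assigned to 15 of the 43 genes (34.9%), against 25.6% of all protein-coding genes. The median territory of the 43 genes was 84.0 kb, larger than the 45.5 kb over all genes, and in the class of 50 to 100 kb 66.7% of all genes had a peak. Among 10 ligands, co-receptors and related genes, 6 had a peak. Nrp2, a co-receptor for Vegfc, had 10 peaks, the closest 7.99 kb downstream, and Angpt4, another angiopoietin, had 2, the closest 2.81 kb upstream. Vegfb and Pgf, the other ligands of Flt1, had none and were picked for mention after the counts were known. In the hypoxia pathway 5 of 9 genes had a peak. Egln1, the prolyl hydroxylase that marks Hif1a for degradation, had 1 peak, 0.059 kb upstream of its TSS on chromosome 8 from 127472980 to 127473447, without a run. Hif1an, the hydroxylase that restrains Hif1a activity, had 4 peaks, the closest 3.34 kb upstream.

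Among 24 endothelial and related genes, 21 had a peak (87.5%), beside the 51.8% of all protein-coding genes. Their median territory was 71.7 kb. A peak within 10 kb was assigned to 11 of the 24 (45.8%), against 25.6% of all protein-coding genes. Among the 11 were 4 of 5 transcriptional regulators of early endothelium and blood, a group not set in advance. These were Etv2 at 2.18 kb, Erg at 3.18 kb, Fli1 at 7.74 kb and Tal1 at 9.06 kb, all upstream. Lmo2 had no peak assigned to it, although 1 lay in its territory. The apelin receptor gene Aplnr had its closest peak 4.71 kb upstream and its ligand gene Apln 3.45 kb downstream. Endothelial surface proteins differed in this respect. Robo4 had its closest peak 0.439 kb downstream, Emcn 2.45 kb downstream and Esam 6.40 kb upstream. Acvrl1 had its closest assigned peak at 12.9 kb, Pecam1 at 20.8 kb and Cdh5 at 123.1 kb, and Eng had none. By territory, Cdh5 had 13 peaks, against 4 assigned to it, and Pecam1 had 4, against 1 assigned. Acvrl1 had 1 and Eng 0 by either count. Lmo2 and these 4 genes were named after their values were seen. Pdgfra, a neighbour of Kit and Kdr, had 1 peak, 1.36 kb downstream, and Kit had 12, the closest 7.38 kb upstream. The most peaks were assigned to Efnb2, a marker of arterial endothelium, with 26, followed by Kit with 12 and by Emcn and S1pr1, a sphingolipid receptor of endothelium, with 11 each. The territory of Efnb2 was large, 1522 kb, and its 15.1 peaks per Mb lay below the 18.9 per Mb of the genome. That of Emcn held 6 peaks, or 20.0 per Mb. The territories of Kit and S1pr1 held 13 and 11 peaks, or 29.1 and 27.2 per Mb. Beside these values, 16 of 27 genes of Fgf ligands and receptors (59.3%) had a peak and 4 of 9 Notch ligands and receptors (44.4%), with 92 and 20 peaks. The median territories of these families were smaller, 66.5 and 65.1 kb, against 209.8 kb for the 10 vascular genes. The difference between these families and the 10 vascular genes was not tested.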

How the data were processed

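Following the study's methods, the authors aligned reads to mm9 using bowtie2, took out duplicates (Picard 1.136), ran MACS with a p-value threshold, dropped regions on the ENCODE blacklist and named each peak after its nearest TSS. The deposited values are peak positions and signed distances in bp, with no normalization. The methods describe intersecting replicates without naming these samples, and whether the list is an intersection is not given in the sources used here. A repeated header row within the list was left out. The TSS of each bound gene was obtained from the peak midpoint and the stated distance. Its sign was set by the strand, and positions were counted from 1. This TSS met the 5′ end of the gene in GENCODE for Vegfc, Angpt1, Angpt2 and Tek, and for the upstream peak of Vegfa. For Kdr, Flt1, Flt4 and Hif1a it did not, as at Hif1a, with 75002311 against 75002362. Width is end minus start.

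Genes were matched by symbol. Their names and lists were chosen with earlier results of these data known. Named are the 10 genes and, of 43 pathway genes, those with a peak within 10 kb and the 3 with the most peaks, with a tie. The share of genes with a peak was taken over RefSeq protein-coding genes, matched by accession or symbol. Sequence came from NCBIM37, the assembly of mm9, and genes from GENCODE vM1. A run was at least 25 purines or pyrimidines. The run search was tested on simulated data and found all 1000 planted runs. Python 3.11.15, numpy 2.4.6, scipy 1.17.1 and matplotlib 3.10.9 were used.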

Additional observations from a re-analysis of the deposited data

How the results depend on the processing

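Of 24 alternative values, set after earlier results of these data were known, 14 stayed within 1.5 times the count or within the 95% interval. Under a limit of 10 kb to the TSS, 4 vascular genes kept 5 peaks and 15 pathway genes had one. A limit of 100 kb left 32 vascular gene peaks, and a width above the median of the list left 27. Peaks without a run numbered 2, at 2 vascular genes, and were found at 6 pathway genes. These counts are lower because each limit leaves fewer peaks to count. Counting the closest peak of each gene alone, the median distance was 10.9 kb and the share with a run was 100%. Matching by RefSeq accession gave the same 52 peaks, and the closest GENCODE TSS 51. The list gives neither reads nor heights, so its width had to stand in for a stricter threshold. No paired analysis was possible because the labels give 1 ChIP sample, with 1 list and no replicate numbers to pair.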

Other observations

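The longest run of the 50 vascular gene peaks with a run was made of purines on the reference strand in 27 and of pyrimidines in 23. Read along the direction of transcription of the assigned gene, 21 of the 50 had the purines on the sense strand. In the whole list 22736 peaks had a purine and 22704 a pyrimidine run as the longest. The run filled the whole window of 200 bp in 4 of the 52 peaks and in 3729 peaks of the list.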
